A study of Homo sapiens with 131 samples.

Results

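The mRNAs of the p24 (TMED) family were followed in cells whose P-body proteins carried an RNA-editing enzyme. The family here is TMED1, TMED2, TMED3, TMED4, TMED5, TMED7, TMED8, TMED9 and TMED10, matched by gene name, and makes up 9 of the 12997 genes of the editing tables. It was chosen by its values in these same editing, translation efficiency, tail length and RNA level tables, so all values of its members are a description and no p-value is given for them. Genes are called where an edgeR (for TPM, limma) adjusted p was under 0.05. Where no member was called, members with an unadjusted p under 0.05 are counted too, with no share of all genes at that threshold. Except where a library is left out or another tool or setting is used, counts of called members stand beside the share of all tested genes called the same way. Nothing about the family is read from any count of called members. Where libraries are said not to overlap, the share of all genes that did the same was not counted, and nothing is read from that either.

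p24 proteins are membrane proteins of the early secretory pathway that cycle between the endoplasmic reticulum and the Golgi. They hold a luminal GOLD domain that meets cargo and a short cytosolic tail that binds the COPII and COPI coats, and they work as heteromeric complexes that select cargo such as GPI-anchored proteins. TMED2 is the beta and TMED10 the delta member, the core of these complexes. TMED1, TMED5, TMED7 and TMED3 form the gamma subfamily, TMED9 and TMED4 the alpha subfamily, and TMED8 is a divergent GOLD-domain protein. P-bodies are cytoplasmic granules of mRNA with proteins that repress translation and remove the cap.

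In the study, P-body proteins were joined to APOBEC1, which converts C to U (STAMP), or to ADAR2dd, the catalytic domain of ADAR2, which converts A to I (HyperTRIBE), so that RNA near a fusion carries edits. HCT116 is a colorectal carcinoma line and HEK293T an embryonic kidney line, both wild type apart from what is named here. The order of the words in a construct's name is the order of its parts. In HCT116 cells labelled induced, ADAR2dd was joined at either end of LSM14A, 4E-T, DDX6, EDC3 or PATL1 (10 fusions), with unfused ADAR2dd (ADAR2dd-control) beside them. APOBEC1 was joined to the same proteins and to DCP2 and EDC4 (10 fusions with replicates), with unfused APOBEC1 (APOBEC1-control) beside them, and 7 further APOBEC1 fusions, among them those of CNOT10 and CNOT1-R, had 1 library each. Dual-editor cells of either line carried APOBEC1-DDX6 with LSM14A-ADAR2dd, and their controls both unfused editors. A separate pair of HCT116 dual-editor groups is labelled illumina. HEK293T cells with LSM14A-TRIBE-ID (0, 15, 30, 60 or 120 min of rapamycin) or DDX6-STAMP-ID (0, 15, 30 or 120 min) recruited an editor on adding rapamycin. Uninduced HCT116 lines carried APOBEC1-control, APOBEC1-DDX6, both unfused editors, or ADAR2dd-control. Polysome data compared wild-type cells with cells lacking DDX6 (DDX6-KO) in each line. The inducing agent, the promoter and whether a line was 1 clone are not stated in the labels.

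Every member is a protein-coding gene on GRCh38.p14. The core members lie at chromosome 12 from 123584552 to 123598582 (TMED2) and chromosome 14 from 75131469 to 75176612 (TMED10). The gamma members lie at chromosome 19 from 10832067 to 10836212 (TMED1), chromosome 1 from 93149742 to 93180413 (TMED5), chromosome 5 from 115613210 to 115626036 (TMED7) and chromosome 15 from 79311112 to 79413886 (TMED3). The alpha members lie at chromosome 5 from 177592203 to 177597242 (TMED9) and chromosome 7 from 44577894 to 44582231 (TMED4), and TMED8 at chromosome 14 from 77335021 to 77377094. The readthrough gene TMED7-TICAM2, from 115578496 to 115626036, covers TMED7, and TMED10 has processed copies such as TMED10P2 on chromosome 3. Reads of these 2 members are therefore uncertain where counting could split them. In uninduced HCT116 lines TMED7-TICAM2 had at most 0.307 TPM (RNA level corrected for length) and TMED10P2 at most 2.39 TPM. There TMED7 had at least 71.7 TPM and TMED10 at least 138.3 TPM.

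The editing measurements covered 83 libraries in 44 groups, with 6259071 to 13432692 reads and a median of 9976552. For each gene they gave the reads and the edited reads, and the score is edited reads as a percent of all reads of the gene. A score takes no account of how many editable bases a gene has. Ranks of genes and multiples of the library-wide share carry the same limit and only describe the scores. HCT116 markers summed to 2772 to 2825 RPM (reads scaled to library size) in HCT116 controls against 98.6 to 106.9 in HEK293T controls, with 6 of 8 listed (LGALS4 and CEACAM6 were not). HEK293T markers summed to 627 to 636 RPM in HEK293T against 84.6 to 84.8 in HCT116, where VIM, CDH2, NEFL and INA of the 6 were not listed. The labels do not say that replicates are separate cultures, so p-values measure only the spread between these libraries, which may be technical. Intervals on scores, shares and ratios are exact 95% intervals and cover counting error only. Where the lower group had no edited read, the ratio is given as "at least", taking 3 edited reads over that group as the most that finding none allows.

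LSM14A is an RNA-binding scaffold of P-bodies, and its fusion LSM14A-ADAR2dd left A-to-I edits on all 9 members. TMED10 scored 4.71% and 4.00% in the LSM14A-ADAR2dd libraries against 0 and 0.0746% in ADAR2dd-control. TMED2, its partner, scored 1.59% and 0.602% against 0 in both controls. For both core members every fusion library lay above every control library, by 118 times for TMED10 (interval 32.3 to 986) and by at least 18.6 times for TMED2. In the gamma subfamily TMED1 scored 5.39% and 4.86% against 0 and 0, and TMED5 scored 4.78% and 2.93% against 0 and 0.185%. TMED7, an adaptor that has been linked to the traffic of the receptor TLR4, scored 2.09% and 3.32% against 0 and 0. The ratios were at least 13.4 for TMED1, 41.2 for TMED5 (13.7 to 203) and at least 31.4 for TMED7.

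TMED3 was the exception among the gamma members, since its score was already high in cells with unfused ADAR2dd. The source of these edits was not tested. TMED3 scored 17.7% and 13.9% with LSM14A-ADAR2dd and 6.37% and 6.83% in ADAR2dd-control, a ratio of 2.33 (1.82 to 3.00). In ADAR2dd-control it was the gene with the 7th highest score of 11260. In the unfused dual-editor controls it stood 2nd of 11497 in HCT116 and 4th of 11088 in HEK293T. The alpha member TMED4 scored 9.22% and 7.85% against 1.08% and 0.70%, and its relative TMED9 1.73% and 1.496% against 0 and 0. TMED8 scored 6.56% and 7.0% against 0.224% and 0.164%. All 3 lay above control in both fusion libraries, by 9.35 times for TMED4 (5.83 to 15.7), at least 33.8 times for TMED9 and 34.9 times for TMED8 (14.5 to 110).

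Against the library-wide editing of 4.93% of reads with LSM14A-ADAR2dd, the scores of the members were uneven. TMED3 stood at 3.20 times that share, TMED4 at 1.73, TMED8 at 1.37 and TMED1 at 1.04. TMED10 at 0.883, TMED5 at 0.782, TMED7 at 0.548, TMED9 at 0.327 and TMED2 at 0.223 times lay below it. By score pooled over libraries, members ranked from 48th (TMED3) and 919th (TMED4) to 8509th (TMED9) and 9388th (TMED2) of 11168 genes. TMED10, TMED5 and TMED1 were neighbours in this order, and the libraries of TMED10 and TMED5 overlapped. All 9 members were called higher than control, beside 93.1% of all genes tested. The median log2 difference from control over all genes tested was 4.13. On that scale the ratios of TMED3 and TMED4 lay below it, and those of TMED10, TMED5 and TMED8 above it.

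**Figure D1:**
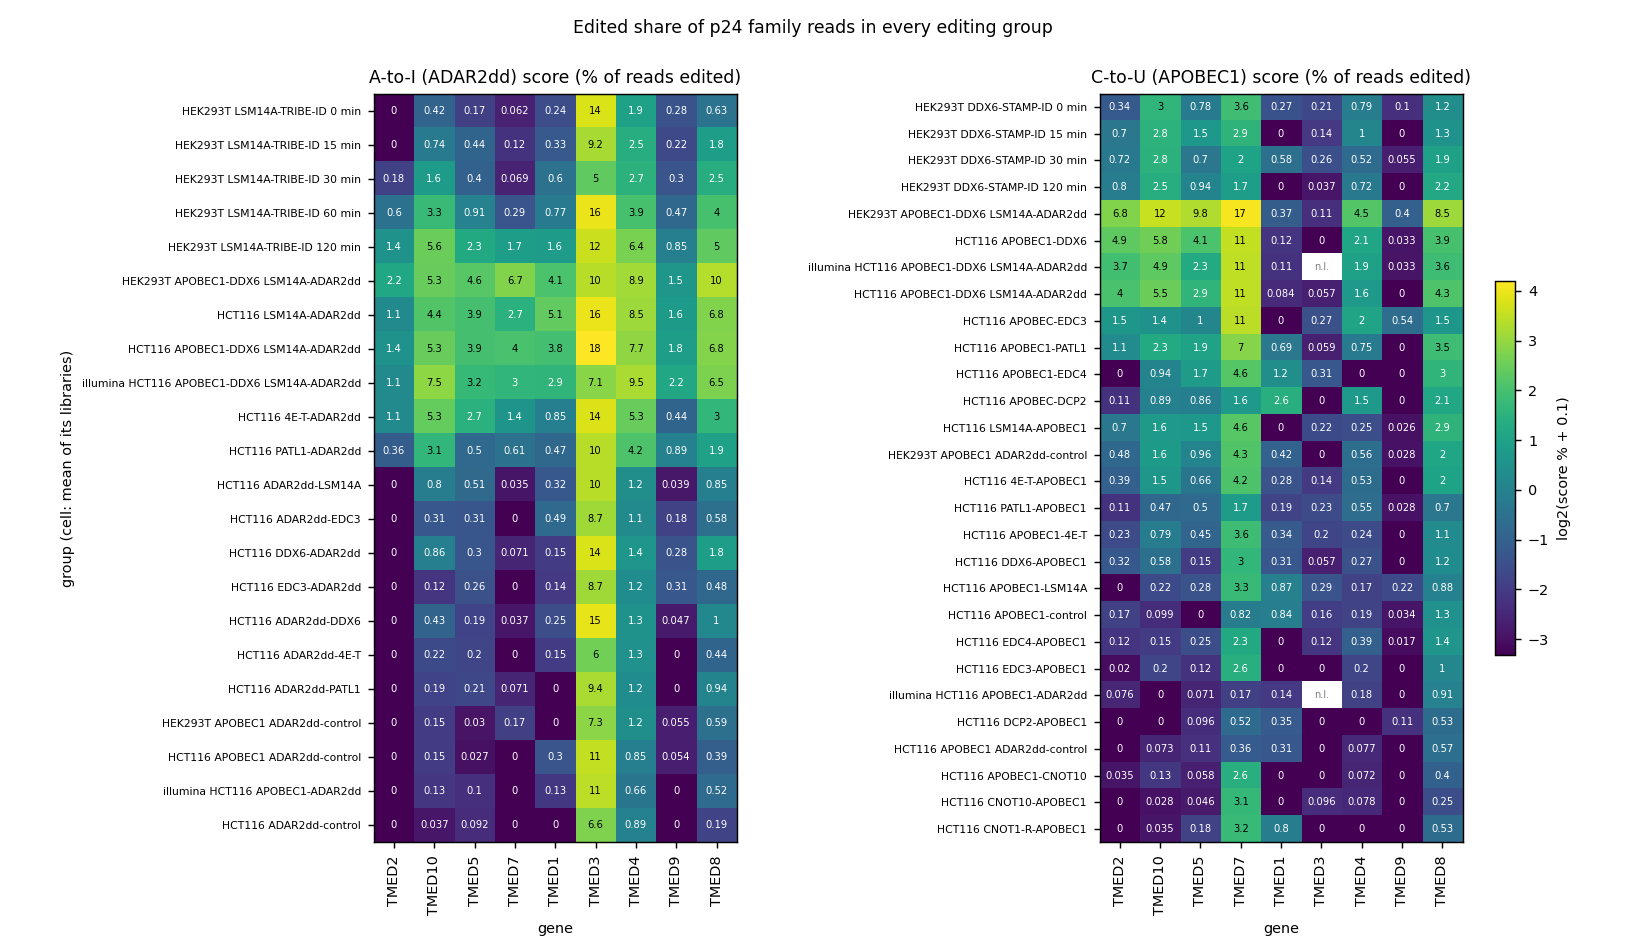
Mean score of each p24 family gene in every editing group, as the percent of reads edited by A-to-I (left) and C-to-U (right); colour is log2(score % + 0.1), rapamycin groups come first and the rest are ordered by their median over the family, and n.l. marks a gene that is not listed. TMED3 is bright in nearly every A-to-I row, controls included, while TMED7 is the brightest C-to-U cell of most rows, with APOBEC-DCP2 among the exceptions.

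Mean scores above 0 for all 9 members were also seen with 4E-T-ADAR2dd and PATL1-ADAR2dd, and not with the other ADAR2dd fusions that were the cells' single editor. 4E-T is a translational repressor that binds eIF4E. With 4E-T-ADAR2dd, TMED10 scored 5.59% and 5.03% and TMED7 1.41% and 1.36%. All 8 members tested were called higher, beside 87.9% of genes, and TMED1 (1.71% and 0) was too low to test. With PATL1-ADAR2dd, a fusion of a decay scaffold, TMED10 scored 2.77% and 3.35%, and 7 of 8 were called beside 60.3%. That count was 4 without PATL1-ADAR2dd replicate 1.

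DDX6-ADAR2dd, which carries the RNA helicase DDX6, had 4 of 6 called (TMED10, TMED3, TMED8 and TMED9) beside 49.2%, and ADAR2dd-DDX6 had 3 of 4 (TMED10, TMED3 and TMED8) beside 46.1%. TMED2, the beta member, had no edited read in either fusion. ADAR2dd-LSM14A had 3 of 5 called (TMED10, TMED3 and TMED8) beside 21.9%, and 1 without its replicate 2 or without ADAR2dd-control replicate 1. EDC3-ADAR2dd, which carries a decapping enhancer, had 1 of 5 called (TMED9) beside 4.98%, and 0 without its replicate 2 or ADAR2dd-control replicate 2. No member was called with ADAR2dd-EDC3 (5 tested, beside 12.3% of genes), ADAR2dd-4E-T (4 tested, 4.84%) or ADAR2dd-PATL1 (4 tested, 1.47%). By edgeR 1, 1 and 2 of these members had an unadjusted p under 0.05, and DESeq2 and limma called 0. ADAR2dd-EDC3 and ADAR2dd-PATL1 each had 1 member called without their replicate 2.

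C-to-U editing by APOBEC1-DDX6 divided the family. TMED10 scored 5.46%, 6.17% and 5.75% in the 3 APOBEC1-DDX6 libraries against 0.143%, 0.117% and 0.0376% in APOBEC1-control, 57.9 times as much (29.2 to 135). TMED2 scored 4.13%, 4.47% and 6.16% against 0, 0.442% and 0.0746%, 28.7 times as much (16.9 to 53.0). In both core members the lowest fusion library lay far above the highest control. TMED7 scored 11.0%, 11.1% and 11.8% against 0.844%, 0.829% and 0.772%, 13.8 times as much (9.85 to 19.9). It ranked 13th of 11701 genes by score pooled over libraries. TMED5, also a gamma member, scored 3.77%, 4.44% and 3.96% against 0 in all 3 controls, at least 49.6 times as much. For these 4 members the libraries of a group lay close together compared with the gap to control.

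TMED8 scored 3.76%, 3.55% and 4.51% against 1.22%, 1.37% and 1.26%, 3.05 times as much (2.14 to 4.43). The alpha member TMED4 scored 2.49%, 1.99% and 1.69% against 0, 0 and 0.571%, 11.3 times as much (4.67 to 35.8). These were also without overlap. The median log2 difference from control over all genes tested was 1.59. On that scale the TMED8 ratio lay close to it, and those of TMED10, TMED2, TMED7 and TMED4 above it. The last 3 members were hardly edited. TMED9 had 3 edited of 9559 reads with APOBEC1-DDX6, TMED3 had 0 of 2798 and TMED1 had 1 of 923. TMED3 and TMED1 lay below control in every library (control scores 0.157% to 0.169% for TMED3 and 0.369% to 1.36% for TMED1), and TMED9 overlapped it. For TMED3 neither group had more than 3 edited reads, and the TMED1 ratio was 0.135 (0.00294 to 1.11). These counts are too low to show a fall. TMED3 thus had the highest A-to-I and among the lowest C-to-U scores of the family.

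All 6 members tested were called higher, beside 52.0% of genes, and TMED1, TMED3 and TMED9 had too few edited reads to test. Measured against the library-wide C-to-U share of 1.32%, TMED7 stood at 8.58 times, TMED10 at 4.40, TMED2 at 3.73, TMED5 at 3.08, TMED8 at 2.99 and TMED4 at 1.56. TMED10 ranked 190th, TMED2 401st, TMED5 689th and TMED8 758th of 11701 genes, while TMED4 was 2777th. TMED5 and TMED8 were neighbours whose libraries overlapped. TMED2 and TMED10 were thus in the upper part of the gene order for C-to-U. For A-to-I with LSM14A-ADAR2dd both lay below the library-wide share, which 31.1% of genes exceeded. By gene order TMED10 (mean 4.35%) still lay above the all-gene median of 3.38% there, and TMED2 (mean 1.10%) below it.

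**Figure D2:**
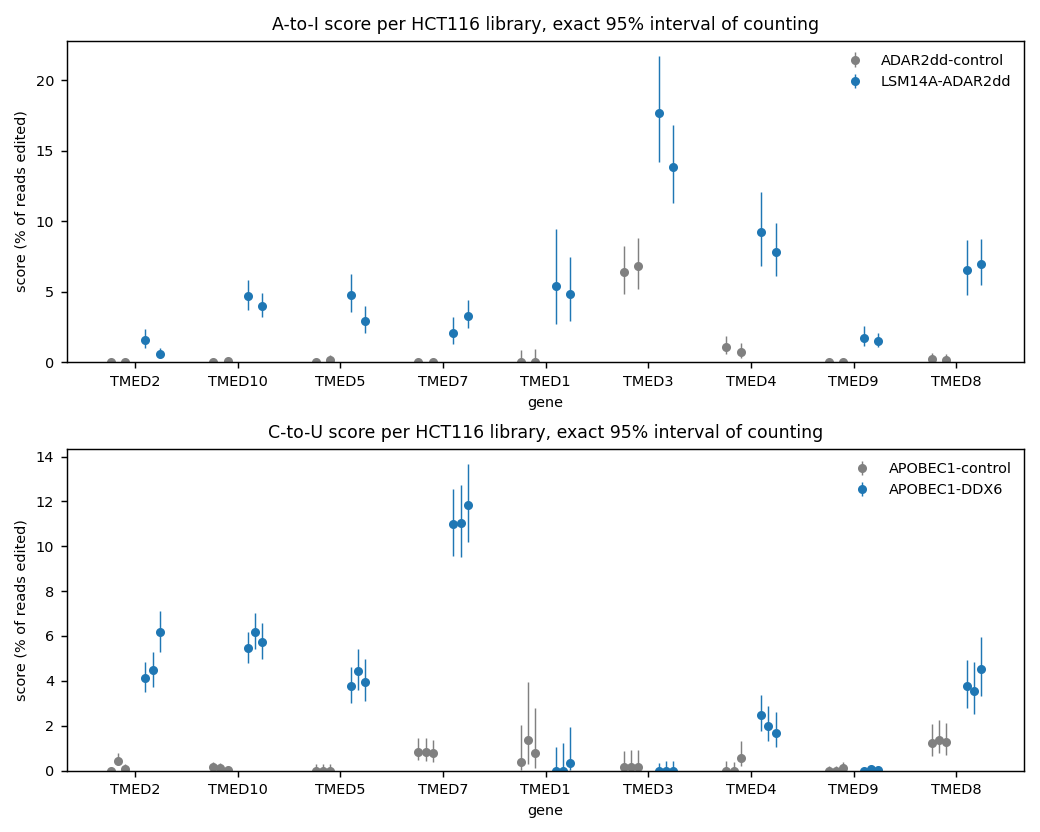
Score (percent of reads edited) in every library for LSM14A-ADAR2dd with its control and for APOBEC1-DDX6 with its control; each point is 1 library with its exact 95% counting interval. The 9 genes lie above control for A-to-I, and TMED1, TMED3 and TMED9 lie at or near 0 for C-to-U while TMED7 reaches 11.0% to 11.8%.

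TMED7 was also edited by most other APOBEC1 fusions. It scored 7.76% and 6.26% with APOBEC1-PATL1, 4.59% and 4.69% with LSM14A-APOBEC1, 3.12% and 5.22% with 4E-T-APOBEC1 and 4.56% and 2.58% with APOBEC1-4E-T. It scored 2.64% and 3.42% with DDX6-APOBEC1, 2.25% and 2.88% with EDC3-APOBEC1 and 1.90% and 2.64% with EDC4-APOBEC1. All these lay above the 3 control libraries of 0.772% to 0.844%, as did PATL1-APOBEC1 (1.62% and 1.74%), while DCP2-APOBEC1, the decapping enzyme, gave 0.477% and 0.562%, below them. The 7 single libraries also lay above, from 1.57% with APOBEC-DCP2 (interval 0.785% to 2.79%) to 10.6% with APOBEC-EDC3 (6.89% to 15.3%). They included subunits of the CCR4-NOT deadenylase, with TMED7 at 2.57% for APOBEC1-CNOT10 (1.83% to 3.50%), 3.11% for CNOT10-APOBEC1 (2.36% to 4.02%) and 3.24% for CNOT1-R-APOBEC1 (2.35% to 4.33%). The last 2 names follow the column headers, since the file list crosses them. Library-wide editing in these 3 libraries (0.208% to 0.229%) was below that of APOBEC1-control (0.313%). In them TMED10 scored 0.0278% to 0.133% and TMED2 0 to 0.0349%.

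TMED10 and TMED5 followed TMED7 in several of these fusions. APOBEC1-PATL1 had 5 of 7 members called (TMED10, TMED2, TMED5, TMED7 and TMED8) beside 23.4% of genes, and LSM14A-APOBEC1 had the same 5 called of 6 tested beside 27.9%. The latter count was 3 without LSM14A-APOBEC1 replicate 1 or APOBEC1-control replicate 1. 4E-T-APOBEC1 (beside 18.8%) and APOBEC1-4E-T (beside 5.05%) each had TMED10, TMED5 and TMED7 called of 6. DDX6-APOBEC1 had TMED10 and TMED7 called of 5 beside 1.70%, with 0 without its replicate 2 and 1 without its replicate 1 or any one control.

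EDC4-APOBEC1 (5 tested, beside 1.09%) and EDC3-APOBEC1 (4 tested, beside 0.859%) had TMED7 alone called. The EDC4-APOBEC1 call was absent without its replicate 2 or APOBEC1-control replicate 2, and the EDC3-APOBEC1 call without its replicate 2 or APOBEC1-control replicate 1. DCP2-APOBEC1 (3 tested, beside 0.927%) and PATL1-APOBEC1 (6 tested, beside 0.510%) had none. By edgeR 2 members were lower at an unadjusted p under 0.05 with DCP2-APOBEC1 and 3 were higher with PATL1-APOBEC1, and DESeq2 and limma called 0.

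Cells with both editors gave a similar division in 2 cell lines. In HCT116 the C-to-U score of TMED7 was 9.72% and 12.4% against 0.197% and 0.521% in unfused controls. TMED10 scored 5.92% and 5.17% against 0.145% and 0, and TMED2 3.72% and 4.32% against 0 and 0. TMED9 had no edited read in either group, TMED3 scored 0 and 0.114%, and TMED1 0 and 0.169%. All 6 members tested were called higher for C-to-U beside 50.6% of genes, and all 9 for A-to-I beside 94.8%.

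For A-to-I in the same HCT116 cells, TMED4 scored 8.32% and 7.10% against 0.889% and 0.815%, TMED8 7.86% and 5.78% against 0.305% and 0.468%, and TMED10 5.34% and 5.35% against 0.116% and 0.176%. TMED7 scored 4.58% and 3.46% and TMED2 1.19% and 1.52%, each against 0 and 0. In these 5 members the dual-editor libraries lay above the controls, while the library-wide share was 4.52% against 0.253%. TMED2 was again the lowest of the family (mean 1.35%). In HEK293T TMED8 scored 11.2% and 9.24%, TMED7 5.71% and 7.71%, TMED10 5.03% and 5.61% and TMED2 2.35% and 1.98%, against controls of at most 0.647% in these members. TMED3 scored 10.2% and 10.44% in HEK293T against 6.87% and 7.82%, high in both groups as in HCT116.

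HEK293T dual-editor cells scored higher for C-to-U in both groups. TMED7 scored 16.0% and 18.1% against 3.55% and 5.09%, and TMED10 10.7% and 12.7% against 1.32% and 1.93%. TMED5 scored 8.58% and 11.1% against 0.851% and 1.06%, and TMED2 6.49% and 7.08% against 0.220% and 0.736%. None of these overlapped, although unfused APOBEC1 edited TMED7 and TMED10 more in HEK293T than in HCT116, as it did all genes together (0.624% against 0.241% of reads). TMED9 scored 0.106% and 0.690% against 0 and 0.0570%, without overlap but at low counts. In HEK293T 7 of 7 members were called for C-to-U beside 67.6% and 9 of 9 for A-to-I beside 94.5%.

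The groups labelled illumina gave TMED7 at 11.0% and 11.1% against 0.332% and 0, and TMED10 at 5.37% and 4.51% against 0 and 0. There 6 of 6 members were called for C-to-U beside 49.0%, and 0 without either dual-editor library. TMED3 is not listed in that C-to-U table. For A-to-I 8 members were called higher beside 92.2%. The ninth, TMED3, scored 7.10% and 7.12% against 11.4% and 10.39%, below control, although in the other HCT116 dual-editor libraries it scored 17.4% and 19.3% against 11.6% and 11.0%.

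Rapamycin recruitment of the LSM14A editor gave a time course in HEK293T cells. All times were among the values the family was chosen by, and comparisons between them are described. They came from 1 edgeR fit of all 10 libraries. TMED10 scored 0.375% and 0.467% at 0 min, 1.03% and 0.457% at 15, 1.99% and 1.30% at 30, 3.45% and 3.14% at 60, and 5.99% and 5.16% at 120. TMED2 had no edited read at 0 and 15 min, then scored 0.203% and 0.157%, 0.768% and 0.432%, and 1.23% and 1.51%. Both core members were higher in both libraries of each time from 30 min on than in those of the time before. TMED5 moved from 0.209% and 0.128% to 2.24% and 2.28% at 120 min, and TMED7 from 0 and 0.124% to 1.72% and 1.75%, with most of the TMED7 difference after 60 min (0.282% and 0.308%). TMED4 went from 2.10% and 1.62% to 6.92% and 5.86%, TMED8 from 0.525% and 0.728% to 4.99% and 5.03%, and TMED9 from 0.124% and 0.438% to 0.722% and 0.968%. In these 5 members the 120 min libraries lay above those of 0 min, while the library-wide share went from 0.822% to 5.66%.

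TMED1 scored 0.221% and 0.263% at 0 min and 0.987% and 2.30% at 120. TMED3 did not follow the course. It scored 13.1% and 14.2% before rapamycin, 4.52% and 13.9% at 15 min, 5.51% and 4.59% at 30, 15.8% and 15.3% at 60, and 8.26% and 15.7% at 120. Its 2 libraries lay far apart at 15 and at 120 min. Against 0 min, 1 member was called higher at 15 min beside 16.6% of genes, 3 at 30 min beside 46.8%, 5 at 60 min beside 69.4% and 8 at 120 min beside 78.2%. The 15 min call was absent without any one library of the course.

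From 15 to 120 min, 7 of 9 members were called higher, beside 68.0% of genes. TMED10 scored 7.80 times as high at 120 min (5.23 to 12.0), and TMED2 at least 19.1 times. The ratio was 5.35 for TMED5 (3.03 to 10.1), 2.53 for TMED4 (1.87 to 3.46) and 2.86 for TMED8 (1.77 to 4.76). It was 3.85 for TMED9 (1.78 to 9.26) and 13.4 for TMED7 (1.95 to 578). TMED1 (log2 difference 2.17) and TMED3 (log2 difference 0.37) were not called.

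The TMED7 call was lost without 15 min replicate 1 (log2 difference 2.79) or either 120 min library (3.58 and 3.55), and the TMED9 call without 15 min replicate 1 (1.60) or 120 min replicate 2 (1.69). Without 15 min replicate 2, TMED3 was called (1.41). Since editing of all genes went up over this interval (median log2 difference 2.02, with the library-wide share at 1.37% and 5.66%), the comparison was also made relative to the library-wide share. On that scale TMED2 alone was called higher, beside 7.84% of genes, and TMED3 alone lower (log2 difference -1.70), beside 4.71%. TMED4, TMED8 and TMED9 changed sign to -0.71, -0.53 and -0.09 without a call.

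Between neighbouring times few members were called. At 60 min TMED10 scored 2.01 times (1.51 to 2.69) and TMED3 3.08 times (2.56 to 3.71) their 30 min values, and these 2 were called, beside 12.6% of genes. Neither of these was called without 30 min replicate 2 (TMED10 0.72 and TMED3 1.49 on the log2 scale) or 60 min replicate 1 (0.93 and 1.60), and TMED10 also lost its call without 30 min replicate 1 (1.34), 60 min replicate 2 (1.07) or 120 min replicate 2 (1.00). With the replicate number as a block, which pairs these libraries, TMED2 and TMED5 were called too. From 15 to 30 min (beside 9.75% of genes) no member was called by edgeR, DESeq2 or limma, with 2 higher and 1 lower at an unadjusted p under 0.05.

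With the block TMED10 and TMED2 were called higher and TMED3 lower from 15 to 30 min. TMED10 and TMED3 were also called there without 15 min replicate 1 (log2 differences 1.84 and -1.46), and TMED2 without either 0 min library. From 60 to 120 min (beside 6.13%) none was called by any of these tools, with 5 higher at an unadjusted p under 0.05. TMED10, TMED4 and TMED5 were called with the block, and TMED5 (log2 difference 1.30) without either 15 min library.

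**Figure D3:**
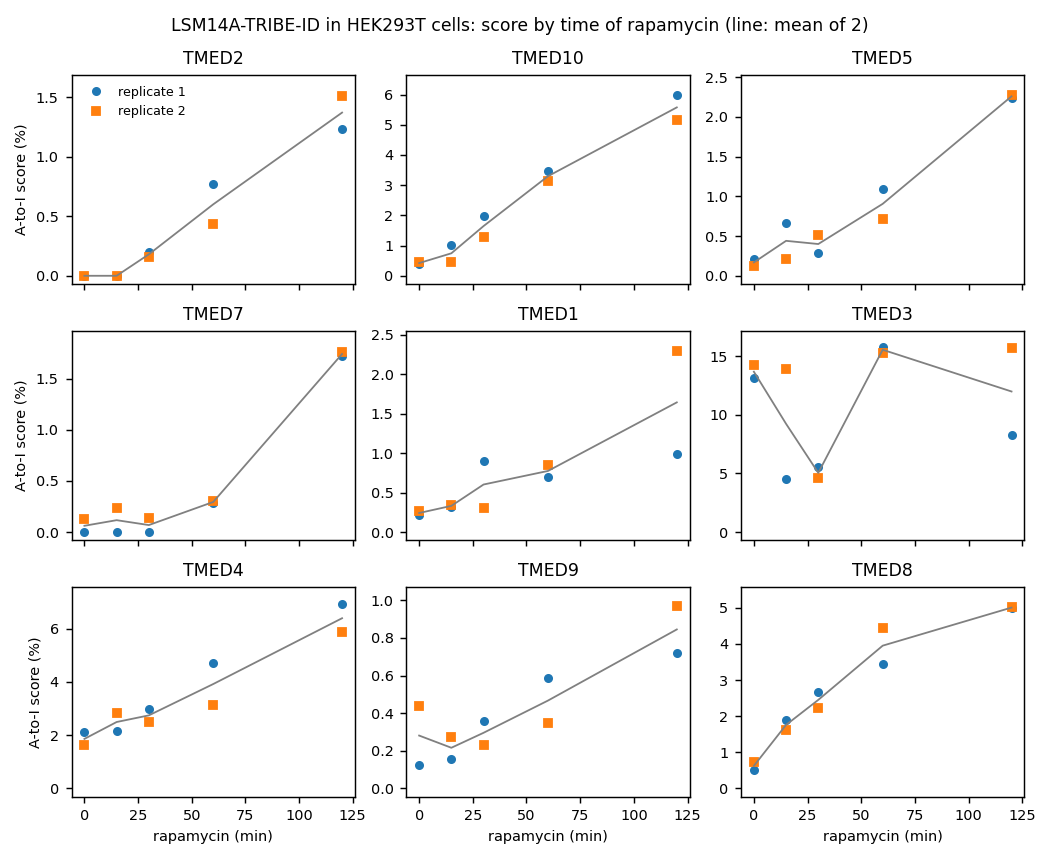
Score (percent of reads edited) of each gene against minutes of rapamycin in HEK293T LSM14A-TRIBE-ID cells; points are the 2 libraries of a time, identified by replicate number, and the line is their mean. TMED10 reaches 5.99% and 5.16% and TMED2 1.23% and 1.51% at 120 min, and TMED3 shows no steady course.

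DDX6-STAMP-ID, the rapamycin-recruited APOBEC1 editor, showed no such course. TMED10 scored 2.65% and 3.36% at 0 min and 2.18% and 2.72% at 120, and TMED7 3.51% and 3.67% at 0 min and 1.90% and 1.59% at 120. TMED2 scored 0.274% and 0.399% at 0 min, 0.704% and 0.690% at 15, 0.682% and 0.760% at 30, and 1.01% and 0.585% at 120. TMED8 scored 1.09% and 1.32% at 0 min and 2.36% and 2.13% at 120, and TMED5 0.832% and 0.723% at 0 min and 0.855% and 1.03% at 120. The rapamycin libraries of TMED2 lay above, and those of TMED7 below, the libraries without it. Of 7 members tested, none was called at 15, 30 or 120 min against 0 min, beside 0.0120% of genes at each time. By edgeR 2, 1 and 2 were higher and 0, 1 and 1 lower at an unadjusted p under 0.05, and DESeq2 and limma called 0. From 15 to 120 min no member was called (beside 0% of genes), none of the 7 had an unadjusted p under 0.05, and DESeq2 and limma called 0. Library-wide C-to-U editing ranged from 0.560% to 0.619% over these times.

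The end of the protein that carried the editor was compared next. These contrasts use libraries whose scores the family was chosen by, so they too are a description. With ADAR2dd at the other end of LSM14A, TMED10 scored 0.736% and 0.863%, TMED7 0.0709% and 0, and TMED4 1.07% and 1.33%. TMED2 had no edited read in either ADAR2dd-LSM14A library. All 9 members were called higher with LSM14A-ADAR2dd, beside 89.5% of genes. TMED7 differed 80.6 times (14.0 to 3240), TMED9 39.9 times (10.6 to 337) and TMED2 at least 16.9 times. TMED1 differed 15.9 times (4.02 to 137) and TMED10 5.37 times (3.75 to 7.85).

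TMED8 differed between the ends by 8.04 times (4.87 to 14.1), TMED5 by 7.39 times (3.94 to 15.3) and TMED4 by 6.93 times (4.40 to 11.4). TMED3 differed least, by 1.48 times (1.2 to 1.9), and lost its call without LSM14A-ADAR2dd replicate 1 (log2 difference 0.42) and by DESeq2. The median log2 difference of all genes was 3.16. Relative to the library-wide share no member was called higher, beside 9.47% of genes. TMED3 was called lower (log2 difference -2.68), beside 5.10% of genes, and TMED10, TMED4, TMED5 and TMED8 changed sign without a call.

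For DDX6 the APOBEC1-first fusion gave the higher scores. With DDX6-APOBEC1, TMED2 scored 0.190% and 0.451%, TMED10 0.584% and 0.578%, TMED5 0.192% and 0.102% and TMED7 2.64% and 3.42%. All 6 members tested were called higher with APOBEC1-DDX6, beside 49.5% of genes. TMED5 differed 27.3 times (12.4 to 75.1), TMED2 15.4 times (9.74 to 25.8) and TMED10 9.95 times (7.17 to 14.2). TMED4 differed 7.91 times (3.49 to 22.2), TMED7 3.74 times (3.05 to 4.62) and TMED8 3.40 times (2.29 to 5.21). The median log2 difference of all genes was 1.54. Relative to the library-wide share TMED2 (log2 difference 2.10), TMED10 (1.46) and TMED5 (2.90) were still called higher, beside 6.80% of genes. TMED4 and TMED7 were no longer called there and TMED8 changed sign.

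RNA levels of the members were read from the same libraries, where fewer cells of a type and less RNA per cell cannot be told apart. In unfused dual-editor controls TMED7 had 73.6 RPM in HEK293T and 180.0 in HCT116, a ratio of 0.409, and TMED10 had 206.6 and 308.0 (0.671). TMED4 (163.5 and 107.6 RPM, ratio 1.52) and TMED5 (197.5 and 142.7, ratio 1.38) stood higher in HEK293T. The other 5 had ratios of 0.743 (TMED9) to 1.09 (TMED3 and TMED1). Both libraries of a line agreed within counting noise and count as 1 each, so these differences have no test, and line and batch cannot be told apart.

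RNA levels in uninduced HCT116 lines, which were also among the values the family was chosen by, are given as TPM, which corrects for length. TMED7 had 79.7, 71.7 and 72.4 TPM in APOBEC1-control, 106.1, 112.3 and 111.8 in APOBEC1-DDX6, 182.7 and 182.1 in the line with both unfused editors, and 139.9 and 132.8 in ADAR2dd-control. The 4 lines did not overlap. The log2 differences from APOBEC1-control were 0.56 ± 0.0427 (SE of the limma fit) with APOBEC1-DDX6, 1.28 ± 0.0478 with both editors and 0.86 ± 0.0478 with ADAR2dd. TMED8 had 29.3, 30.1 and 30.2 TPM in APOBEC1-control and 25.3, 24.8 and 24.7 in APOBEC1-DDX6, the only member called lower there (log2 difference -0.25 ± 0.0278). With both editors (42.7 and 41.4 TPM) and with ADAR2dd (37.9 and 36.8 TPM) the TMED8 libraries lay above those of APOBEC1-control.

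TMED2 was the most abundant member by TPM, at 205.9 to 211.8 TPM in APOBEC1-control and 253.5 and 261.6 in ADAR2dd-control (log2 difference 0.30 ± 0.0202). TMED10 had 138.3 to 145.4 TPM in APOBEC1-control and 140.6 and 146.5 in ADAR2dd-control (log2 difference 0.01 ± 0.0285). TMED3 was the least abundant, at 10.0 to 10.2 TPM in APOBEC1-control. In order the APOBEC1-control levels ran TMED2, TMED10, TMED9, TMED7, TMED4, TMED1, TMED8, TMED5 and TMED3, with no overlap between neighbours. TMED1 lay higher in each other line, by log2 0.46 ± 0.0639, 0.59 ± 0.0714 and 0.91 ± 0.0714 in the order used for TMED7.

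Of 9 members, 7 were called higher in ADAR2dd-control (beside 39.2% of genes), 9 with both editors (39.6%) and 6 in APOBEC1-DDX6 (23.6%), where TMED8 was called lower. TMED3 with both editors was not called when 1 of its 2 libraries (the second column) was left out (log2 difference 0.18). Median log2 differences of all genes were 0.10 (ADAR2dd-control), 0.13 (both editors) and 0.01 (APOBEC1-DDX6). These lines are labelled uninduced, so these are differences between lines, which cannot be told apart from clone or batch.

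**Figure D4:**
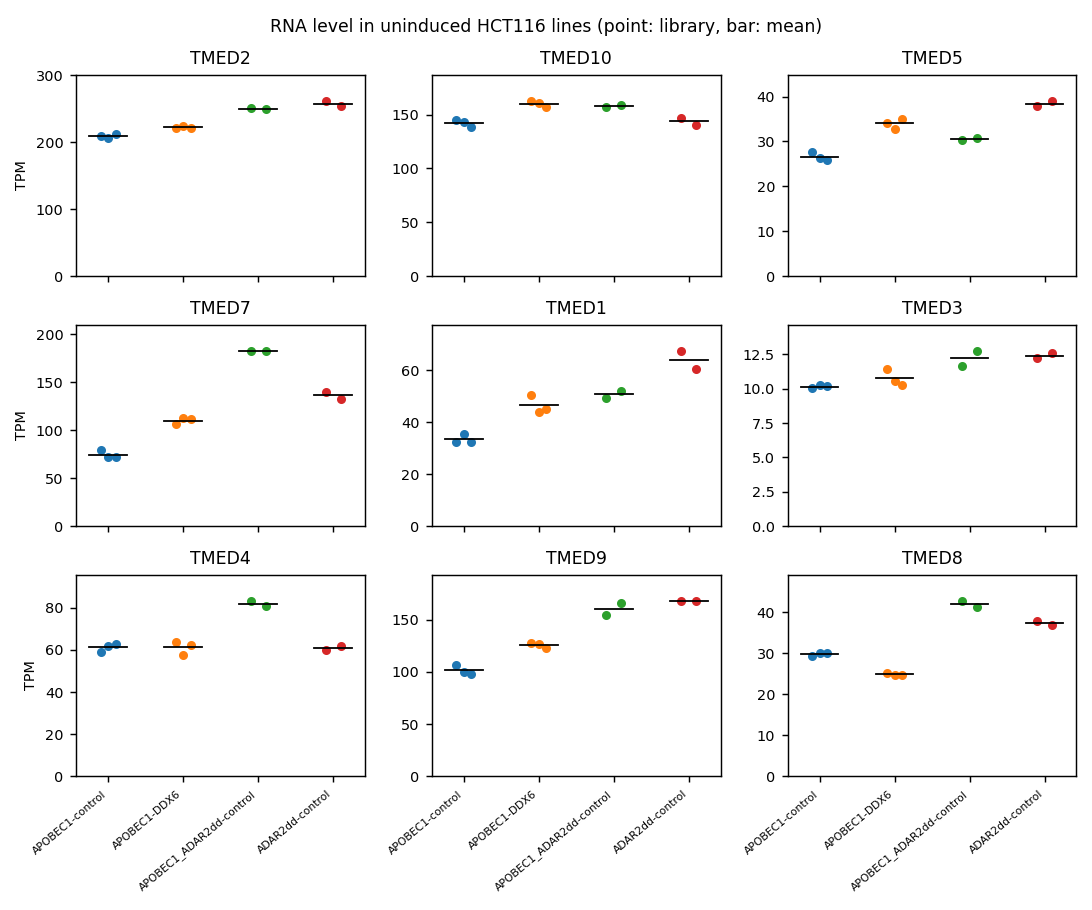
RNA level (TPM, linear axis from 0) of each gene in uninduced HCT116 lines; points are libraries and bars their means. TMED7 separates the 4 lines, from 71.7 to 79.7 TPM in APOBEC1-control to 182.1 and 182.7 TPM with both unfused editors.

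Translation efficiency, polysome RNA relative to total RNA, was deposited as 1 log2 value per genotype, so differences have no replicate check. In HCT116 the core member TMED2 stood at 0.49 in wild type and 1.47 without DDX6, a difference of 0.98. TMED7 went from -1.52 to -0.56 (0.96), TMED8 from -1.07 to -0.32 (0.75) and TMED5 from -0.54 to -0.02 (0.53). These 4 were the members with a difference of at least 0.5, which 33.1% of all genes had. TMED10 differed by 0.41 and TMED4 by 0.16, around the all-gene median of 0.30, and TMED9 (-0.11), TMED3 (-0.18) and TMED1 (-0.28) were lower in the knockout. The 6 members called for C-to-U with APOBEC1-DDX6 ranged from 0.16 to 0.98 (median 0.64). The 3 others, which had too few edited reads to test, ranged from -0.28 to -0.11. The family was chosen by both measures, so this carries no test, and the same split was not made over all genes.

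In HEK293T the differences were smaller. TMED8 went from 1.13 to 1.65 (0.51), the 1 member past 0.5 beside 8.18% of genes. TMED5 differed by 0.42 and TMED10 by 0.38, TMED2 by 0.17, and TMED7 by 0.07. The 6 and 3 members overlapped here (0.03 to 0.51 and -0.05 to 0.08), and the all-gene median was 0.08. Wild-type TMED7 stood at the 5.15th percentile of genes in HCT116 and the 99.7th in HEK293T, and TMED5 at the 28.5th and 99.0th. Whether the values of the 2 lines share a scale was not checked, so only such ranks of wild-type values are set side by side. Efficiency of DDX6 itself does not check the knockout.

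**Figure D5:**
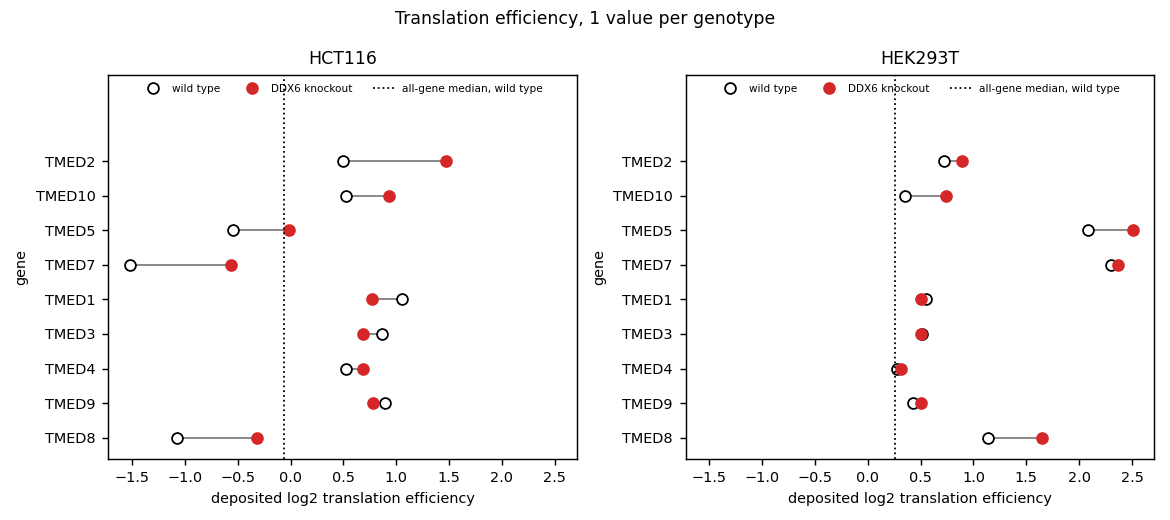
Deposited log2 translation efficiency of each gene in wild-type (open) and DDX6-knockout (filled) cells, 1 value per genotype, with the wild-type median of all genes dotted. In HCT116 TMED2, TMED7, TMED8 and TMED5 lie furthest to the right of their wild-type value, and in HEK293T TMED5 and TMED7 start high, at 2.09 and 2.30.

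Nanopore reads of dual-editor cells were sorted by the authors into reads edited by both enzymes and the other reads, with a median poly(A) tail length for each, in 1 library per line. In HCT116 TMED10 had tails of 163.3 nt on 71 doubly edited reads and 121.0 nt on 402 other reads, 42.3 nt longer. TMED7 had 171.6 nt (33 reads) and 171.9 nt (96 reads). TMED2 (132.1 against 149.8 nt, 50 doubly edited reads), TMED4 (135.6 against 153.4 nt, 33 reads) and TMED5 (146.1 against 156.2 nt, 32 reads) had shorter tails on doubly edited reads. Among 1094 genes the median difference was -36.3 nt and 18.1% were longer, so that all 5 members lay above the median difference and TMED10 at the 94.7th percentile. Doubly edited reads made up 15.01% of TMED10 reads (11.9% to 18.5%) and 25.6% of TMED7 reads (18.3% to 34.0%). In HEK293T TMED2 had 108.4 against 116.1 nt on 11 doubly edited reads and TMED4 95.3 against 121.4 nt on 21, where the median of 678 genes was -31.5 nt. The other members are not listed in these tables.

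Other genes of the pathway were counted from lists of the COPI coat, which returns vesicles to the endoplasmic reticulum, the COPII coat, which carries cargo out of it, and other cargo receptors. With APOBEC1-DDX6 the median C-to-U score was 0.773% for COPI genes, 0.750% for COPII genes, 1.58% for other receptors and 3.94% for the 9 p24 members, beside 1.05% for all genes. The p24 family was chosen by these scores and genes differ in editable bases, so the medians are listed and not compared. The highest of the 3 other lists were ARF4 (3.78%), a GTPase of the COPI cycle, SEC24A (2.99%), a COPII cargo adaptor, and CNIH1 (4.26%), a cornichon cargo receptor. With LSM14A-ADAR2dd the medians were 4.35% for p24, 4.89% for COPI, 5.72% for COPII, 4.92% for other receptors and 3.38% for all genes. KDELR1, the receptor that retrieves resident proteins, had the highest score of the 3 other lists (10.6%).

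Between the ends of LSM14A, 15 of 15 COPI, 12 of 12 COPII and 14 of 14 other receptor genes were called higher with LSM14A-ADAR2dd, beside 89.5% of genes. Relative to the library-wide share these were 8 (with 1 lower), 2, and 1 (with 2 lower), beside 9.47% of genes higher and 5.10% lower. Between the ends of DDX6, 9 of 13 COPI genes were called higher and 1 lower, and 5 of 10 COPII and 11 of 14 other receptors higher, beside 49.5% of genes. Relative to the library-wide share 2 COPI (1 lower), 0 COPII (1 lower) and 3 receptor genes (1 lower) were called higher. Of all genes 6.80% were called higher there and 7.13% lower, and the COPII median was -0.45 on the log2 scale. From 15 to 120 min of rapamycin 14 of 15 COPI, 11 of 12 COPII and 14 of 16 receptor genes were called higher, beside 68.0% of genes. Relative to the library-wide share these were 6, 1, and 1 (with 3 lower), beside 7.84% of genes higher and 4.71% lower. In HCT116 the knockout difference in efficiency was at least 0.5 for 8 of 15 COPI, 6 of 12 COPII and 3 of 16 receptor genes, beside 33.1% of all genes, with LMAN1, a lectin receptor, highest among receptors (1.69) and ARCN1, the delta subunit of COPI, highest among COPI genes (1.23). These 2 genes were named after their values were seen, and the lists were put together with results of these data known.

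Likeness of pattern was measured as Spearman's correlation of mean scores over the 50 combinations of editor and group, among 8600 genes that reached 20 reads throughout the editing libraries (TMED3 was not among them), and is a description, since groups share controls, depth and editor strength. TMED10 was most like GSK3B (0.949), BNIP3L (0.948) and VBP1 (0.946). TMED2 was most like PPP1CB (0.945), YWHAQ (0.941) and SEPTIN11 (0.929). TMED7 was most like CLIC4 (0.855), PPP1R2 (0.840) and MAT2B (0.838), and TMED9 like ATG4D (0.851), PTPRA (0.839) and ATG13 (0.839). Within the family TMED5 and TMED10 had a correlation of 0.919. Among 8599 other genes TMED10 ranked 2nd in likeness to TMED5, and TMED5 ranked 34th in likeness to TMED10. Over the 28 C-to-U groups TMED5 and TMED10 stood at 0.90 (TMED10 ranked 50th for TMED5, and TMED5 322nd for TMED10). TMED9 correlated there with the other members by 0.136 to 0.297 and TMED1 by -0.236 to 0.136.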

How the data were processed

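Per the labels' protocols, total RNA was made into short-read mRNA libraries or nanopore cDNA libraries. The submitters' processing notes name STAR 2.7.9a, featureCounts 2.0.1, cutadapt 1.18 and FastQC 0.11.9 with build hg38. How edited sites were called, and how TPM and tail lengths were made, is not given in the sources used here. The authors deposited, per gene and library, counts of reads and edited reads with the edited fraction, TPM of uninduced lines, log2 translation efficiency, and tail lengths (score) by read class with read counts; the fraction was recomputed here from the counts. Of 131 samples, 20 had no file here and were not analysed here. Samples were grouped by their titles; TPM columns of the line with both unfused editors show the group and no replicate.

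Edited reads were tested with edgeR 4.0.16 (R 4.3.3; quasi-likelihood, offset of log reads); genes needed 20 or more reads in each library and 10 or more edited reads in all. TPM were tested with limma 3.58.1 (trend) on log2(TPM + 1) at a mean TPM of at least 1. Two-sided p-values were adjusted (Benjamini-Hochberg) across all genes tested, with a threshold of 0.05. Ratios, and ranks of genes by score, pool edited reads and reads over libraries. Alternatives were DESeq2 1.42.0, limma on log2(score + 0.1%), an offset with the library-wide edited share, no filter, a replicate block, and each library left out; for TPM, a pseudocount of 0.1. Python 3.11.15, pandas 2.3.3, scipy 1.17.1, numpy 2.4.6 and matplotlib 3.10.9 did the rest. The fits were tested on simulated counts.

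Reads agreed within counting noise in 15 of 41 replicate pairs, and edited reads in 0 of 47 (chi-square per degree of freedom 1.11 to 1.88), so libraries were kept apart for editing. For reads of the 2 lines they were counted as 1, and the planned edgeR test of RNA level was not run. Same-numbered LSM14A-TRIBE-ID libraries, numbered by the labels, deviated together in reads (correlations 0.728 to 0.778), so the numbers pair them.

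Members and gene lists were chosen with earlier results of these data known. All 9 members are named, with at most 2 genes of highest and lowest score from each other list, and the 3 genes most alike for TMED2, TMED7, TMED9 and TMED10.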

Additional observations from a re-analysis of the deposited data

Results flagged for a closer look

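TMED3 stood out for A-to-I editing in dual-editor cells because its difference from the unfused control had opposite signs in different groups. The dual-editor minus control difference was 10.84 percentage points larger in HCT116 cells, and 6.77 percentage points larger in HEK293T cells, than in the HCT116 groups labelled illumina. Both dual-editor libraries lay above both controls in the first pairs of groups and below them in the last. The difference between the groups was not tested.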

How the results depend on the processing

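Counts here are members called higher. With an offset that also held the library-wide edited share, counts moved for 4E-T-ADAR2dd (8 to 3) and ADAR2dd-DDX6 (3 to 0). They also moved for ADAR2dd-LSM14A (3 to 1), DDX6-ADAR2dd (4 to 1), EDC3-ADAR2dd (1 to 0), LSM14A-ADAR2dd (9 to 2) and PATL1-ADAR2dd (7 to 2). Of all genes, 14.7%, 7.92%, 5.20%, 9.64%, 1.16%, 12.6% and 12.2% were called higher with the offset, in the same order. Dual-editor A-to-I counts moved in HCT116 (9 to 2), HEK293T (9 to 2) and the illumina groups (8 to 3). The C-to-U count moved in HEK293T (7 to 2). Shares of all genes called higher there were 11.8%, 8.72%, 11.1% and 6.23% in this order. APOBEC1-PATL1 and LSM14A-APOBEC1 each moved from 5 to 3, beside 7.13% and 8.01% of genes. LSM14A-TRIBE-ID moved at 15 (1 to 0), 30 (3 to 0), 60 (5 to 1) and 120 min (8 to 1) against 0 min. It also moved at 60 against 30 min (2 to 0) and at 120 against 15 min (7 to 1). Shares of all genes called higher were 4.46%, 11.1%, 14.9%, 16.4%, 0.234% and 7.84% in this order. The terminus counts moved from 9 to 0 for LSM14A (beside 9.47% of genes) and from 6 to 3 for DDX6 (beside 6.80%). Members called lower with this offset numbered 2 for LSM14A-ADAR2dd, HEK293T dual-editor A-to-I and 60 and 120 against 0 min. Of all genes, 10.8%, 5.98%, 5.33% and 8.25% were called lower there, in this order. They numbered 1 for 4E-T-ADAR2dd, ADAR2dd-DDX6, DDX6-ADAR2dd, PATL1-ADAR2dd, A-to-I in the HCT116 and illumina dual-editor cells, 15 and 30 against 0 min, 120 against 15 min and the LSM14A ends. The offset also reversed 10 log2 differences: TMED3 (-1.70), TMED4 (-0.71), TMED8 (-0.53) and TMED9 (-0.095) at 120 against 15 min, TMED10 (-0.83), TMED3 (-2.68), TMED4 (-0.46), TMED5 (-0.36) and TMED8 (-0.26) between LSM14A ends, and TMED8 (-0.087) between DDX6 ends. By construction it asks about editing relative to the library.

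DESeq2 gave 0 for ADAR2dd-DDX6, EDC3-ADAR2dd, EDC4-APOBEC1 and 15 against 0 min, 1 for ADAR2dd-LSM14A and 60 against 30 min, 2 for DDX6-ADAR2dd, and 3 for APOBEC1-PATL1 and LSM14A-APOBEC1. limma gave 0 for EDC3-ADAR2dd, DDX6-APOBEC1, EDC3-APOBEC1, EDC4-APOBEC1 and 60 against 30 min, 1 for ADAR2dd-LSM14A and APOBEC1-4E-T, and 3 for LSM14A-APOBEC1. At 120 against 15 min DESeq2 lost TMED7 and TMED9, and limma lost TMED9 and gained TMED1. Without the filter ADAR2dd-LSM14A gave 1, EDC3-ADAR2dd 0, PATL1-APOBEC1 1, 15 against 0 min 0, 30 against 15 min 2 and 120 against 60 min 1. Causes were not tested. Shares of all genes called are not given here for settings other than the offset. With the replicate block LSM14A-TRIBE-ID gave 2 at 30 against 15 min, 4 at 60 against 30 min and 3 at 120 against 60 min. Elsewhere libraries shared only a number (correlations of deviations -0.037 to 0.057 in scores and -0.094 to 0.181 in reads). Correlations in reads were over 0.1 for LSM14A-ADAR2dd and for both pairs of PATL1-APOBEC1. In a group of 2 libraries the deviations mirror each other, so its pairs are not separate observations and are too few to tell. In these comparisons the block gave 1 for DDX6-APOBEC1, 0 for EDC3-APOBEC1 and 3 for LSM14A-APOBEC1. It moved no other count by over 1.5 times.

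Leaving out 1 library gave 0 to 1 for ADAR2dd-EDC3, ADAR2dd-PATL1, EDC3-ADAR2dd, DDX6-APOBEC1, EDC3-APOBEC1 and EDC4-APOBEC1, 1 to 3 for ADAR2dd-LSM14A, 4 to 8 for PATL1-ADAR2dd, 3 to 5 for LSM14A-APOBEC1 and 0 to 6 for illumina C-to-U. For LSM14A-TRIBE-ID it gave 0 in every case at 15 against 0 min, 0 to 1 at 30 against 15 and at 120 against 60 min, and 0 to 2 at 60 against 30 min. Of the other values, 384 counts and 1035 log2 differences kept their side of the threshold or stayed within 1.5 times. For RNA level between lines neither the edgeR test nor its other settings (DESeq2, no filter, replicate block, libraries left out) were run, since each line counted as 1 library. With APOBEC1-DDX6, TMED1, TMED3 and TMED9 had fewer than the 10 edited reads a test needed. Of these TMED1 had the fewest reads (923).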

Other observations

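The remaining p24 family gene, TMED6, which is not a member here, had 0.385 to 2.53 TPM in the uninduced lines. Its log2 translation efficiency was -0.17 in wild-type HCT116 cells and 0 without DDX6, and 0.28 and 0.09 in HEK293T cells.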
